A study of Homo sapiens with 36 samples.

Results

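IGR37, an established human melanoma cell line, was treated for 48 h with 1 uM of an inhibitor of stearoyl-CoA desaturase (SCD), labelled A939372 and written SCDi here, or with the solvent DMSO. The 3 SCDi and 3 DMSO libraries are 6 of the 36 in the series and were taken by the cell line and treatment in their labels, not by any measured value. 2 further pairs of groups, with 3 libraries in each group, serve to test differences between effects. The first pair is 501mel, another established melanoma line, with 1 uM SCDi or DMSO for 48 h. The second is IGR37 with 20 nM of the SCD siRNA siSCD_2 or the control siRNA siCTR for 48 h. For each gene the tests share a spread estimated over 24 libraries, among them 501mel with 20 nM siCTR or siSCD_2 for 48 h. Both lines grew in RPMI medium with serum, and nothing in the labels says that cells of any group carried an added transgene or a deletion. Total RNA was counted with a kit that reads 1 tag near the 3′ end of each transcript. Values are log2 CPM, the base-2 logarithm of read counts scaled to a common library total (CPM), so that a difference of 1 on this scale is a 2-fold change. The labels do not say that the replicates were separate cultures, so each p-value reflects the spread within groups over these 24 libraries, which may be technical.

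SCD desaturates saturated fatty acyl chains to monounsaturated ones, and its products supply the unsaturated acyl chains of membranes and stored fat. A membrane of the endoplasmic reticulum (ER) that is rich in saturated chains is known to activate the unfolded protein response even without misfolded proteins. Its sensors are PERK, which phosphorylates the translation factor eIF2 and so favours translation of ATF4, IRE1, which splices the XBP1 messenger, and ATF6, which is released from the membrane to act in the nucleus. In melanoma cells the lineage factor MITF drives pigment genes and many genes of proliferation, and its level is known to fall under translational and ER stress.

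The promoters of 6 genes named below are shown for their elements, known sites of factors whose activity or binding was not measured here. They come from RefSeq, build GRCh38.p14, from 250 bases before to 50 bases after the gene's start, written 5′ to 3′ on the gene's strand, with the element in capitals. HSPA5 and CALR, ER chaperones whose transcripts moved in opposite directions, both hold the ER stress response element, CCAAT and CCACG with 9 bases between them, the known site of ATF6 and XBP1 with NF-Y. Its first base lies 66 bases before the start in HSPA5 (chr9:125241294-125241593, minus strand) and 225 bases before it, on the opposite strand, in CALR (chr19:12938359-12938658, plus strand). CHAC1, a glutathione-degrading enzyme, and HERPUD1, an ER membrane protein of protein disposal, both hold the C/EBP-ATF core TGATGNAA, the known site of ATF4 and DDIT3 with C/EBP partners, on the opposite strand, 209 bases before the start in CHAC1 (chr15:40953221-40953520, plus strand) and 176 in HERPUD1 (chr16:56931892-56932191, plus strand). TYR, tyrosinase, holds the M-box core TCATGTG, the known site of MITF, 105 bases before its start (chr11:89177625-89177924, plus strand). CDC25A, a phosphatase that activates cyclin-dependent kinases, holds the E2F site TTTGGCGC 44 bases before its start (chr3:48188368-48188667, minus strand).
HSPA5: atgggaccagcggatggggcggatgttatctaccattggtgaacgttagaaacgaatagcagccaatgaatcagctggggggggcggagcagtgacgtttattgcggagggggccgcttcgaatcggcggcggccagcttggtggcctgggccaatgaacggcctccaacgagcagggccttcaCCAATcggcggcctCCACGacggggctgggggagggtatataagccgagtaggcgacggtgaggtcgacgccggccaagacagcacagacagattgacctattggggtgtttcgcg
CALR: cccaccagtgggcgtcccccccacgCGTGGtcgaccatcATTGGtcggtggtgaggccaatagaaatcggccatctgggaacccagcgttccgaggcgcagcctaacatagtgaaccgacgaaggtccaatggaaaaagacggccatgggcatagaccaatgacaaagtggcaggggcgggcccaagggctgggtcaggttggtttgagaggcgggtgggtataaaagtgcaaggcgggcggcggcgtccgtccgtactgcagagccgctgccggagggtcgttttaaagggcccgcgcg
CHAC1: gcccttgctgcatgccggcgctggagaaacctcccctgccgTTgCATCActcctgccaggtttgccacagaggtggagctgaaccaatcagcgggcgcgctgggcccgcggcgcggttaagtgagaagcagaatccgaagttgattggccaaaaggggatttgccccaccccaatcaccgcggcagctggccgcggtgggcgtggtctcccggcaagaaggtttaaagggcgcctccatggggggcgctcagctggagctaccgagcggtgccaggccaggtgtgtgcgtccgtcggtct
HERPUD1: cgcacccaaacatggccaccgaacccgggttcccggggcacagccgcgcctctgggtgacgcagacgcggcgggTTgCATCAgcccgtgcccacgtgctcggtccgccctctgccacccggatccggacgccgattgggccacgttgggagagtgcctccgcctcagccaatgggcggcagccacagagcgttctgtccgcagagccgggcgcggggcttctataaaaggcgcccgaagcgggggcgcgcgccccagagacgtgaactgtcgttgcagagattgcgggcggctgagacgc
TYR: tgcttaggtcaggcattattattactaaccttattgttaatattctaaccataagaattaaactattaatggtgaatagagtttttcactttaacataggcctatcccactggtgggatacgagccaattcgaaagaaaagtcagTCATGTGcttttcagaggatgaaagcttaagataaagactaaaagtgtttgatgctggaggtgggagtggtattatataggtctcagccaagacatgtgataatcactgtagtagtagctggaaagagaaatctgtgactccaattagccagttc
CDC25A: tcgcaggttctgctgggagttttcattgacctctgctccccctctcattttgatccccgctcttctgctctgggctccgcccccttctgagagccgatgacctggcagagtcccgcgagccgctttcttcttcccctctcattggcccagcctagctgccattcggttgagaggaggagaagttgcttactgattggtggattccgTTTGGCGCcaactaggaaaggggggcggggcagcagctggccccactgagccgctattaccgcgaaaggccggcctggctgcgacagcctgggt

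Searched on both strands, the ER stress response element was in 12 of 7023 promoters of tested genes (0.171%), the C/EBP-ATF core in 103 (1.47%), the M-box core in 124 (1.77%) and the E2F site in 86 (1.23%). The HERPUD1 window also holds 1 CACGTG E-box, 159 bases before the start. Only the form of the ER stress response element with 9 bases between its parts was searched. The HERPUD1 window holds ATTGGGCCACG, in which ATTGG, the opposite-strand CCAAT, and CCACG lie closer together than in the form searched. The promoter table covers 52.6% of the 13364 genes tested, so motif shares counted over gene lists were not tested and are not reported here. A match says only that these letters are in the window.

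The 6 libraries held 4278126 to 5157153 gene reads each, with 3.76 to 4.83% of reads on added spike-in RNAs. Where a library held no read of a gene, the 3 reads that a count of 0 allows correspond to 0.541 to 0.637 CPM, a limit for counting error only. Replicates of 1 group correlated at 0.989 to 0.992 over the 6682 genes above the median level, and no 2 of them were copies of each other. The melanocyte markers MITF, SOX10, PMEL, MLANA, TYR, TYRP1, DCT and S100B were measured in every library, which fits the label. Of 10 epithelial and 10 blood and endothelial markers only 2 of each were in the table, with summed levels of 1.3 to 2.08 CPM with DMSO and 0.942 to 3.94 CPM with SCDi for the first and 1.9 to 4.31 and 1.74 to 3.49 CPM for the second. In bulk RNA fewer cells of a kind and less RNA per cell cannot be told apart. Scaling by the spike-ins in place of the deposited scaling moved the median change of all genes by -0.08, the median difference between the lines by -0.46 and the median difference from the siRNA by 0.39.

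SCDi changed a large part of the measured transcripts of IGR37. By limma's moderated test with Benjamini-Hochberg adjustment over 13364 genes, the source of every adjusted p here, 2797 genes rose (20.9%) and 3093 fell (23.1%) at an adjusted p below 0.05. At least 2-fold changes were found for 1136 genes that rose (8.5%) and 791 that fell (5.92%). All 3 SCDi libraries lay above all 3 DMSO libraries for 3839 genes (28.7%) and below them for 3932 (29.4%). The median change over all genes was 0. With spike-in scaling 1454 genes rose and 2183 fell.

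**Figure D1:**
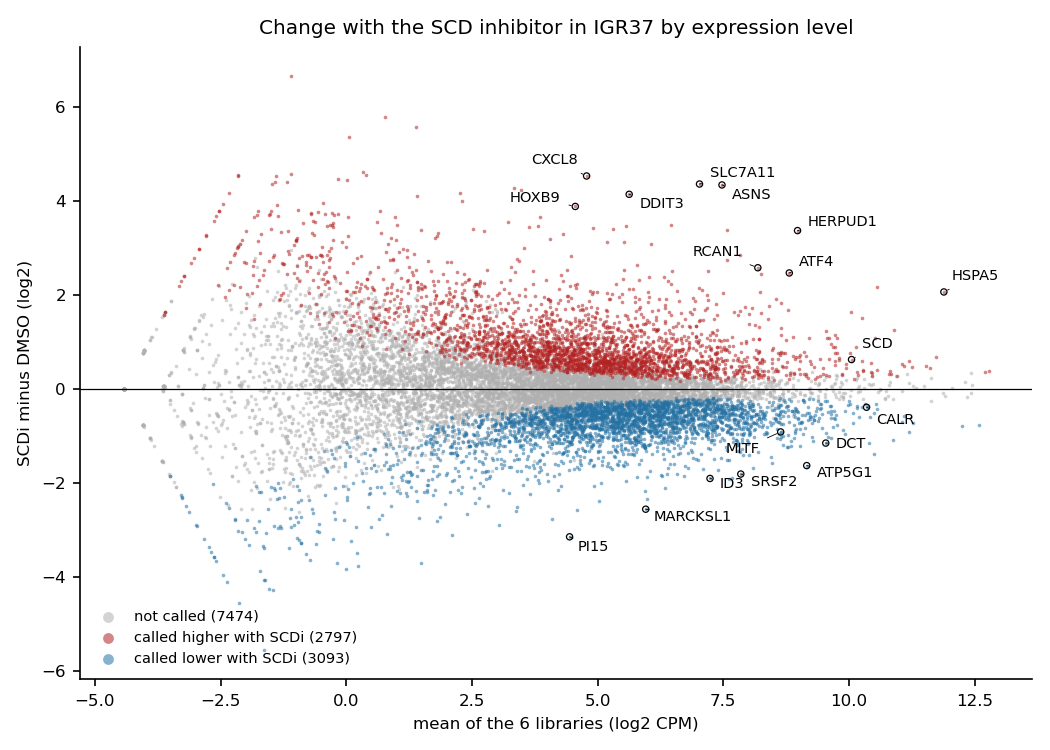
Mean level over the 6 IGR37 libraries (x axis, log2 CPM) against the change with SCDi (y axis, SCDi minus DMSO, log2) for 13364 genes, with genes that rose (2797) and fell (3093) at adjusted p below 0.05 in colour. Among the 18 labelled genes CXCL8, SLC7A11, ASNS and DDIT3 lie highest and PI15 and MARCKSL1 lowest, and the lines of points at the left are genes with a few reads.

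Of the 50 pathway lists, the transcription factors of the PERK arm had the highest median change. Of 15 measured factors 13 rose and 1 fell, with 9 rises of at least 2-fold and a median change of 1.73. The list, like all those below, was drawn up with earlier results of these data known, so its direction is a description. ATF4 (ENSG00000128272.14, chromosome 22, 39519695 to 39522685, plus strand, hg38), the main effector of eIF2 phosphorylation, read 7.54, 7.44 and 7.76 log2 CPM in the DMSO libraries and 10.06, 10.02 and 10.06 in the SCDi libraries. DDIT3 (ENSG00000175197.12, chromosome 12, 57516588 to 57521737, minus strand), the pro-apoptotic factor also called CHOP, read 3.54, 3.42 and 3.71 with DMSO and 7.73, 7.69 and 7.68 with SCDi. The 3 SCDi libraries lay close together and far above the DMSO libraries for both genes, with changes of 2.47 ± 0.14 (SE, as after every ± below) and 4.14 ± 0.15 (adjusted p = 3.01e-13 and 5.26e-17). ATF3, a repressor induced by ATF4, had 36 reads over the 3 DMSO and 665 over the 3 SCDi libraries, with levels of 0.89, 1.26 and 1.41 log2 CPM with DMSO and 5.58, 5.31 and 5.54 with SCDi. It rose by 4.29 ± 0.27 (adjusted p = 2.93e-12), and no SCDi library overlapped a DMSO library. JDP2, a bZIP repressor, rose by 3.67 ± 0.25, and NUPR1, a small stress-induced chromatin protein, by 3.38 ± 0.23 (adjusted p = 1.34e-11 and 1.12e-11). TRIB3, a pseudokinase that feeds back on ATF4, rose by 2.86, and the C/EBP family members CEBPG and CEBPB by 2.02 and 1.73. ATF5 was the 1 member that fell, by 0.56 ± 0.19 (adjusted p = 0.0157), a call that was lost under 4 alternative settings.

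**Figure D2:**
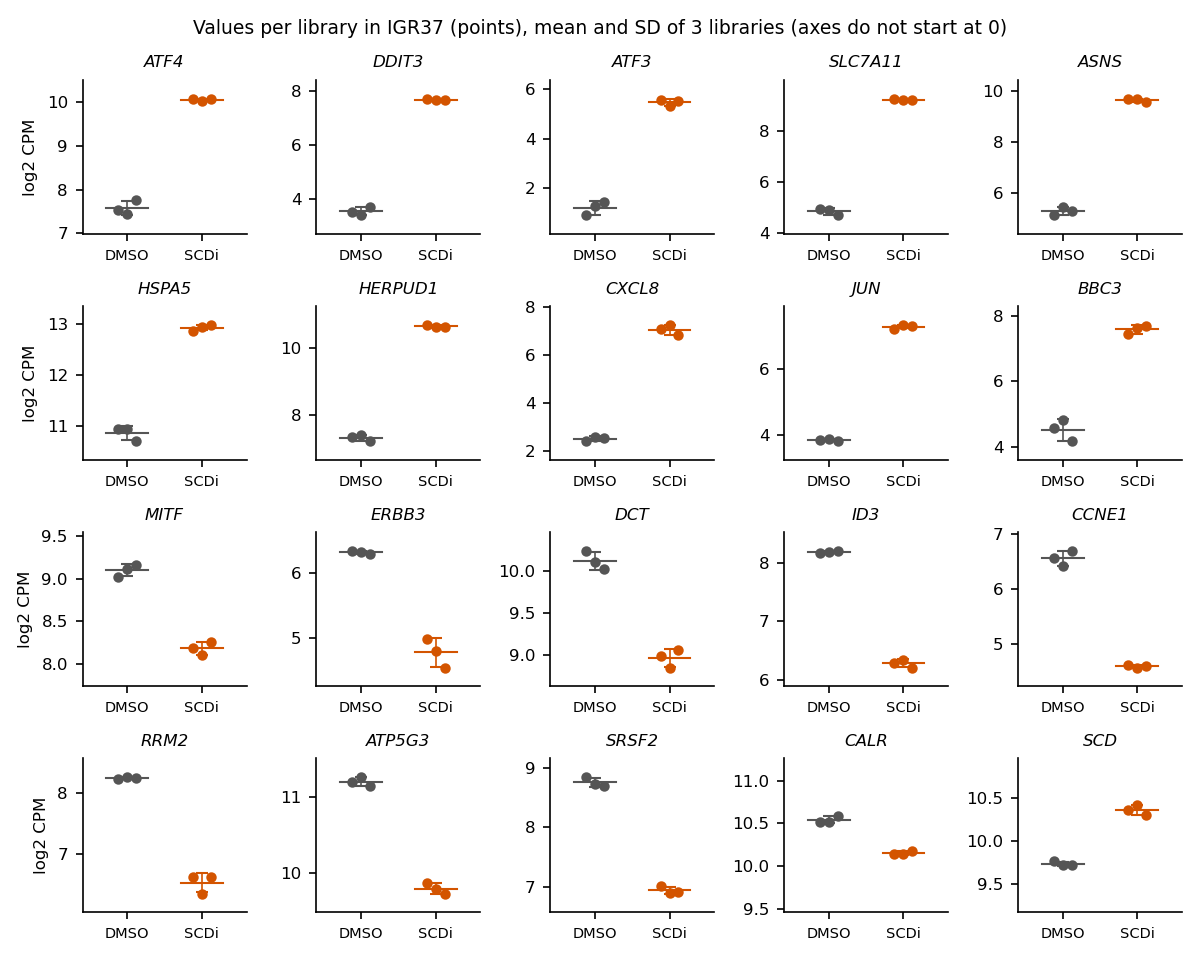
Level of 20 genes in each of the 3 DMSO and 3 SCDi libraries (y axis, log2 CPM; points are libraries, horizontal lines the group mean, bars 1 SD). The groups do not overlap for any gene shown, with SCDi higher for ATF4, DDIT3, ATF3, HSPA5, HERPUD1, JUN and BBC3 and lower for MITF, ERBB3, DCT, ID3, CCNE1, SRSF2 and CALR.

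Genes of the eIF2 list, not all of which act on eIF2 itself, split. EIF2AK3, which encodes PERK itself, read 4.84, 5.02 and 4.77 with DMSO and 6.68, 6.83 and 6.84 with SCDi. All SCDi libraries were higher, by 1.91 ± 0.11 (adjusted p = 8.35e-13). PPP1R15A, the stress-induced phosphatase subunit that removes the phosphate from eIF2, rose by 2.74 ± 0.16, and EIF4EBP1, an inhibitor of cap-dependent translation, by 1.28 ± 0.15. The alpha subunit gene of eIF2, EIF2S1, fell by 0.69 ± 0.09. CHAC1, whose promoter is shown above, rose by 3.43 ± 0.24 (adjusted p = 1.58e-11). In all, 6 of 15 members of the eIF2 list rose and 2 fell, a median change of 0.15. The rises include CHAC1 and EIF4EBP1, neither of which is an eIF2 kinase or phosphatase subunit.

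Most enzymes that make amino acids rose. Of 19 enzymes of asparagine, serine, proline and one-carbon metabolism, 14 rose and 5 fell (median 1.03). ASNS, which makes asparagine, read 5.14, 5.47 and 5.29 log2 CPM with DMSO and 9.67, 9.69 and 9.58 with SCDi, a rise of 4.34 ± 0.16 (adjusted p = 6.51e-17) with no overlap. CTH, which makes cysteine from cystathionine, rose by 2.52 ± 0.15, and PHGDH, the entry enzyme of serine synthesis, by 1.88 ± 0.11. ALDH1L2, a mitochondrial folate enzyme, went from 12 to 168 reads over 3 libraries, a rise of 4.10 ± 0.74 (adjusted p = 6.11e-05). Among the 5 that fell were PYCRL, of proline synthesis (by 1.48 ± 0.22), SHMT1, the cytosolic serine hydroxymethyltransferase (by 0.93), ALDH18A1 (by 0.76) and MTHFD1 (by 0.57). The mitochondrial counterparts SHMT2 and MTHFD2 rose by 1.03 and 1.56.

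The cytosolic tRNA synthetases, which charge tRNAs with amino acids, rose for 13 of 20 members and fell for 4 (median 0.67). The largest rises were those of MARS (2.08 ± 0.21), GARS (2.05 ± 0.15), WARS (1.92 ± 0.10) and CARS (1.90 ± 0.09), the synthetases for methionine, glycine, tryptophan and cysteine. MARS read 5.39, 5.68 and 5.59 with DMSO and 7.83, 7.57 and 7.48 with SCDi. The 4 that fell were both phenylalanine subunits, FARSA (by 0.69 ± 0.14) and FARSB (by 0.45), and the histidine and lysine enzymes HARS (by 0.67) and KARS (by 0.44). Of the mitochondrial synthetases 3 of 17 rose and 7 fell (1 and 4 with spike-in scaling), with MARS2, the mitochondrial methionine enzyme, down by 1.07 ± 0.19. The carriers were mixed, with 5 of 16 up (31.25%, against 20.9% of all genes) and 4 down (25%, near the 23.1% of all genes). SLC7A11, the cystine-glutamate exchanger, read 4.95, 4.90 and 4.69 with DMSO and 9.25, 9.20 and 9.18 with SCDi, and the neutral amino acid carriers SLC38A2 and SLC1A5 rose by 2.38 ± 0.13 and 1.15 ± 0.17. Among 25 regulators of mTORC1, the kinase complex that couples amino acids to growth, 4 rose and 5 fell, shares of 16% and 20% that are at or below those of all genes (20.9% and 23.1%). The falls were 3 with spike-in scaling and 8 when centred on the median gene or with only the compared libraries. The inhibitors SESN2 and DDIT4 rose by 3.49 ± 0.15 and 1.83, and SESN3 fell by 0.94 ± 0.18.

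Most genes of the ER folding machinery rose. Of 24 chaperones and folding enzymes 20 rose and 2 fell (median 0.56), and with spike-in scaling 10 rose and 0 fell. HSPA5 (ENSG00000044574.7, chromosome 9, 125234853 to 125241330, minus strand), the ER chaperone BiP, read 10.94, 10.94 and 10.69 log2 CPM with DMSO and 12.86, 12.94 and 12.96 with SCDi. CALR, the lectin chaperone calreticulin, read 10.52, 10.52 and 10.59 with DMSO and 10.14, 10.14 and 10.18 with SCDi. The 2 promoters share the element shown above, and the 2 transcripts moved apart without overlap in either case: HSPA5 rose by 2.07 ± 0.09 (adjusted p = 2.37e-15) and CALR fell by 0.39 ± 0.08 (adjusted p = 0.000287, and 0.101 with spike-in scaling). ERO1B, an oxidase that drives disulfide formation, went from 28 to 281 reads, a rise of 3.41 ± 0.38, while its relative ERO1A fell by 0.25. DNAJB9, a co-chaperone of BiP, rose by 2.38 ± 0.18, and FKBP14, a collagen-folding isomerase, by 1.23 ± 0.13. The other chaperones that rose did so by 0.31 (SDF2L1) to 1.20 (FKBP2).

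Most genes for disposal and for entry into the ER rose. HERPUD1 (ENSG00000051108.14, chromosome 16, 56932048 to 56944863, plus strand) read 7.31, 7.38 and 7.18 with DMSO and 10.71, 10.64 and 10.64 with SCDi. The SCDi libraries lay close together and stood 3.37 ± 0.08 above DMSO (adjusted p = 2.47e-20). SYVN1, the membrane ubiquitin ligase of ER-associated degradation, rose by 1.85 ± 0.10, SELK (selenoprotein K) by 1.80 ± 0.11 and VIMP (selenoprotein S) by 1.68 ± 0.10. NPLOC4, a cofactor of the ATPase that extracts substrates, fell by 0.75 ± 0.11, and its partner UFD1L by 0.63. In all, 15 of 22 degradation genes rose and 3 fell (median 0.73). Of 24 genes of the IRE1 and ATF6 arms, the translocon and export vesicles, 19 rose and 3 fell (median 0.68). SEC24D and SEC23B, coat subunits of vesicles that leave the ER, rose by 1.97 ± 0.24 and 1.47 ± 0.10. XBP1 read 7.13, 7.22 and 7.29 with DMSO and 8.84, 8.79 and 8.83 with SCDi, a rise of 1.61 ± 0.08; 3′ tags cannot tell its spliced from its unspliced form. SRPR, the receptor of the signal recognition particle, rose by 1.26 ± 0.12, and SRP9, a subunit of the particle, fell by 0.62 ± 0.13.

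**Figure D3:**
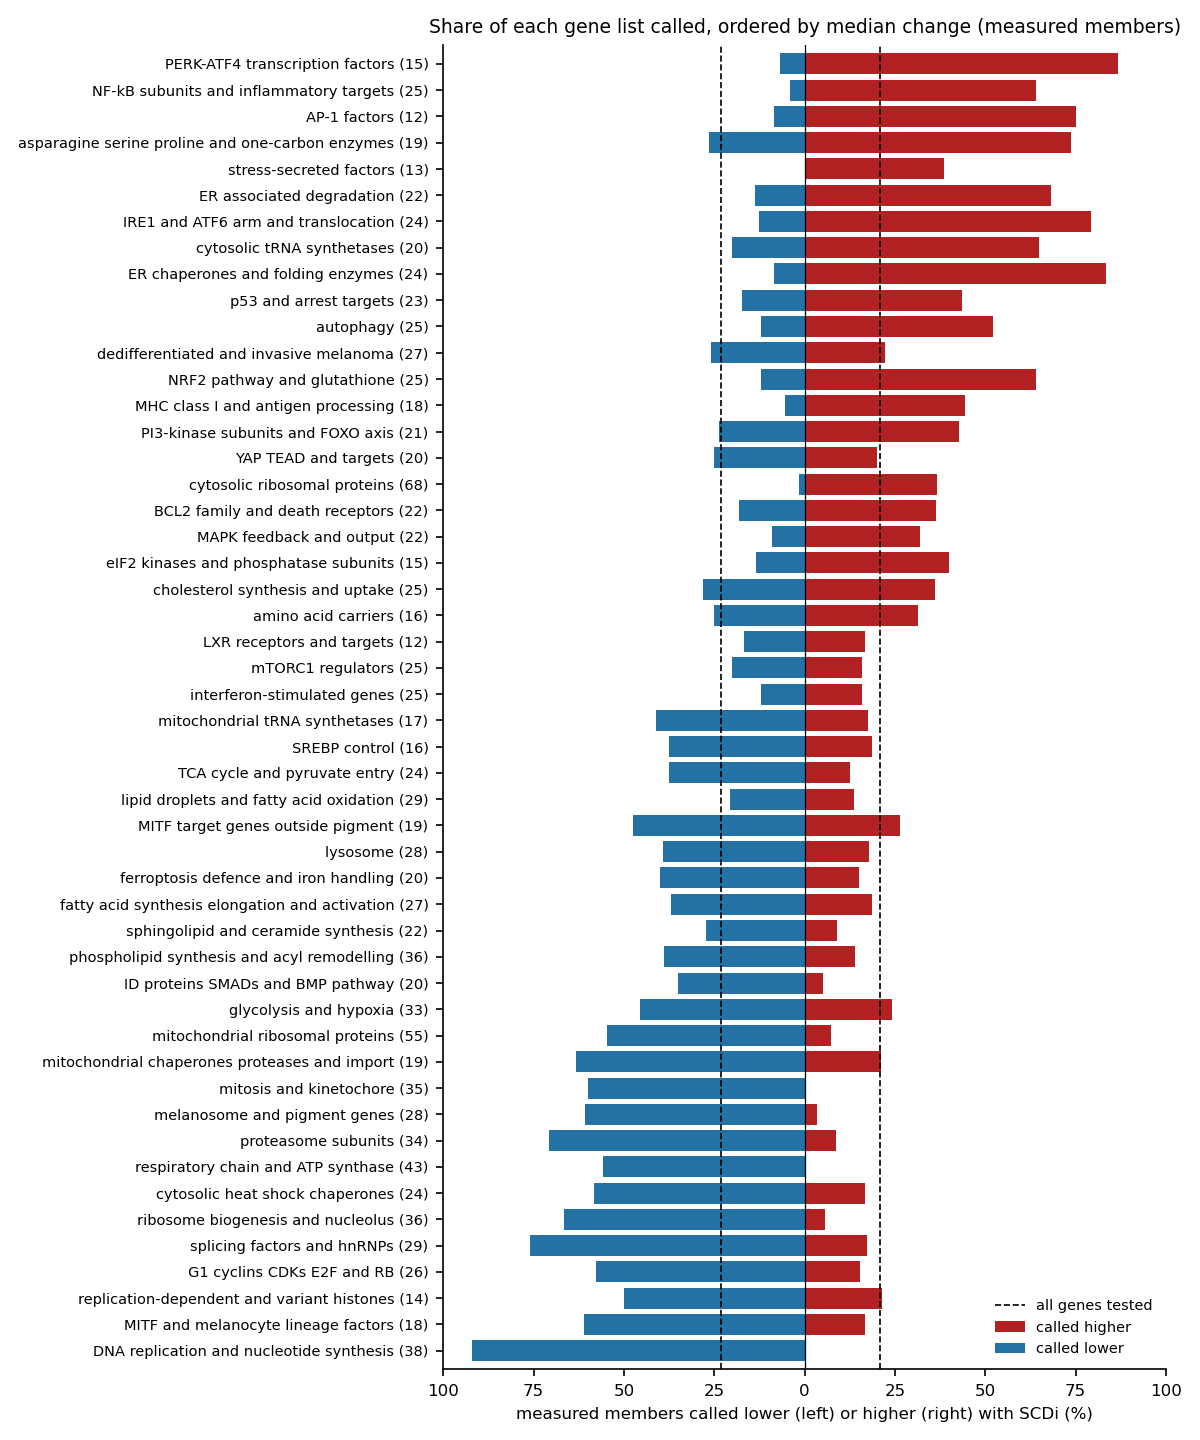
Percent of the measured members of each of 50 gene lists that rose (right) or fell (left) with SCDi in IGR37, ordered by median change, with dashed lines at the percent over all genes tested (20.9 and 23.1). The PERK-arm, ER folding, IRE1 and ATF6 and AP-1 lists have long bars to the right, and the DNA replication, splicing and proteasome lists long bars to the left.

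Most AP-1 and NF-kB genes rose. Of 12 AP-1 genes, 9 rose and 1 fell (median 1.03), and with spike-in scaling 6 rose. JUN (ENSG00000177606.6, chromosome 1, 58780788 to 58784327, minus strand), a core AP-1 subunit, read 3.84, 3.87 and 3.80 log2 CPM with DMSO and 7.24, 7.34 and 7.33 with SCDi. No library overlapped, and the rise was 3.47 ± 0.12 (adjusted p = 2.17e-17). JUND, MAFF and MAFK rose by 1.86 ± 0.16, 1.70 ± 0.15 and 1.56 ± 0.17, and the large MAF factor MAF fell by 1.91 ± 0.22. Among the 25 NF-kB subunits and targets, 16 rose and 1 fell (median 1.08). RELB, a subunit of the non-canonical pathway, rose by 3.42 ± 0.20, NFKB2, the precursor of its partner, by 2.26, and the inhibitor NFKBIA by 1.54. CXCL8 (ENSG00000169429.10, chromosome 4, 73740506 to 73743716, plus strand), the chemokine interleukin-8, read 2.40, 2.59 and 2.55 with DMSO and 7.09, 7.23 and 6.82 with SCDi. That is 91 reads against 2010, a rise of 4.53 ± 0.33 (adjusted p = 3.79e-11) with no overlap. BIRC3, an anti-apoptotic ubiquitin ligase, went from 20 to 294 reads (rise of 3.998 ± 1.005). It read 0.74, -0.38 and 0.54 with DMSO and 4.38, 4.24 and 4.28 with SCDi. Its SE also carries the spread of other groups, such as 501mel with DMSO at -0.58, -4.43 and -4.43. CXCL2, a neutrophil chemokine, had 3 reads with DMSO and 100 with SCDi, a 35.7-fold ratio of CPM with a 95% counting interval of 11.9 to 176. CCL2, a monocyte chemokine, had 8 reads with DMSO and 0 with SCDi, at least 2.49-fold lower against a floor of 3 reads over the group, a call lost with a pseudocount of 1. Of 25 interferon-stimulated genes 4 rose and 3 fell (16% and 12%), below the shares of all genes (20.9% and 23.1%). The RNA sensor IFIH1 rose by 1.95 ± 0.33 from 42 to 145 reads, the nuclease ISG20 by 1.38 ± 0.14 and the signalling factor STAT2 by 1.01 ± 0.13, whereas IFIT1 went from 18 reads to 1 (ratio 16.8, counting interval 2.65 to 700.3).

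Among secreted factors of stress, 5 of 13 rose (38.5%, against 20.9% of all genes) and 0 fell (against 23.1% of all genes). VEGFA, the vascular growth factor, read 4.26, 4.25 and 4.50 with DMSO and 6.71, 6.73 and 6.58 with SCDi, a rise of 2.34 ± 0.13 (adjusted p = 2.42e-13). INHBA, a subunit of activin, rose by 2.76 ± 0.39. ADM2, a peptide hormone, and INHBE, another activin subunit, were near the floor with DMSO, at 5 and 6 reads, and had 191 and 94 reads with SCDi. GDF15, a stress cytokine, rose by 1.09. On the MAPK list 7 of 22 rose (31.8%, against 20.9% of all genes) and 2 fell (9.09%, against 23.1%). The falls were 1 to 4 under the alternative settings. IER3, KLF6 and SPRY2 rose by 1.51 ± 0.10, 1.49 ± 0.12 and 1.19 ± 0.17, and DUSP6, a phosphatase that marks ERK output, fell by 0.80.

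Of 22 BCL2 family and death receptor genes 8 rose (36.4%, against 20.9% of all genes) and 4 fell (18.2%, against 23.1%), with a median of 0.21. BBC3, the BH3-only protein PUMA, read 4.58, 4.82 and 4.16 with DMSO and 7.45, 7.65 and 7.70 with SCDi, with no overlap, a rise of 3.08 ± 0.17 (adjusted p = 1.51e-13). PMAIP1, the BH3-only protein NOXA, rose by 1.45 ± 0.20, and BCL2L11, the BH3-only protein BIM, fell by 1.33 ± 0.24. TNFRSF10B, the death receptor DR5, rose by 1.66 ± 0.14, the caspase gene CASP9 by 0.96 and MCL1, which protects from death, by 0.46, while BAK1, a pore-forming death effector, fell by 0.84. On the arrest list 10 of 23 rose (43.5%, against 20.9% of all genes) and 4 fell (17.4%, against 23.1%). CDKN1A, the cyclin-dependent kinase inhibitor p21, had 3.62, 3.49 and 3.84 log2 CPM with DMSO and 5.17, 4.97 and 5.13 with SCDi. All SCDi libraries were higher, by 1.44 ± 0.40 (adjusted p = 0.00466). GADD45A, a stress sensor, rose by 2.43 ± 0.26 and MDM4, a p53 antagonist, by 1.57 ± 0.09, while CCNG1, a long-known p53 target, fell by 0.58.

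The melanocyte lineage genes fell for the most part. Of 18 lineage factors and receptors 11 fell and 3 rose (median -0.75). MITF (ENSG00000187098.15, chromosome 3, 69739435 to 69968337, plus strand) read 9.02, 9.12 and 9.16 log2 CPM with DMSO and 8.19, 8.11 and 8.26 with SCDi. It was lower in every SCDi library, and fell by 0.92 ± 0.08 (adjusted p = 9.74e-10). SOX9, a neural crest factor, went from 205 to 22 reads (by 3.11 ± 0.81), and SOX10, which drives MITF transcription, fell by 0.50. KIT, the receptor for stem cell factor, fell by 1.59 ± 0.15. ERBB3, a neuregulin receptor, read 6.34, 6.33 and 6.30 with DMSO and 4.98, 4.80 and 4.54 with SCDi, and fell by 1.55 ± 0.11. IRF4, which acts with MITF on TYR, fell by 1.29 ± 0.14. The 3 that rose were PAX3 (0.60 ± 0.15), ZEB2 (0.45) and SNAI2 (0.43), neural crest regulators, and with spike-in scaling none of these 3 rose, PAX3 having an adjusted p of 0.0668.

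Most pigment genes fell. Of 28 melanosome and pigment genes 17 fell and 1 rose (median -0.37), and with spike-in scaling 11 fell and 0 rose. TYR, the first enzyme of melanin synthesis, whose promoter is shown above, read 7.97, 7.99 and 7.97 with DMSO and 6.76, 6.93 and 6.94 with SCDi. DCT, dopachrome tautomerase, read 10.23, 10.10 and 10.02 with DMSO and 8.98, 8.85 and 9.06 with SCDi. Neither gene had an overlap between groups, and they fell by 1.10 ± 0.09 and 1.15 ± 0.11 (adjusted p = 3.25e-10 and 2.07e-09). TRPM1, a cation channel gene, fell by 2.00 ± 0.16 and GAPDHS by 1.79 ± 0.47 (120 to 32 reads). The structural melanosome gene PMEL, at 10.85 log2 CPM with DMSO, did not pass the test (change -0.16). ABCB5, a transporter, was the 1 member that rose (0.41 ± 0.16, a call lost under 8 alternatives). Among 19 MITF targets outside pigment 9 fell and 5 rose (7 and 2 with spike-in scaling). CTSK, a collagen-degrading protease, ACP5, a phosphatase, and the kinase gene CDK2 fell by 1.23 ± 0.38, 1.13 ± 0.15 and 0.96 ± 0.12. S100B, a calcium-binding protein used as a melanoma marker, read 7.72, 7.68 and 7.69 with DMSO and 6.24, 6.14 and 6.24 with SCDi.

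Genes of dedifferentiated and invasive melanoma did not move one way. Of 27 members 6 rose and 7 fell (4 and 4 with spike-in scaling). These shares, 22.2% and 25.9%, are near those of all genes (20.9% and 23.1%). AXL, the receptor kinase that marks such cells, had 6 reads with DMSO and 9 with SCDi over 3 libraries each, below what this depth can separate (adjusted p = 0.977). CYR61, a matrix protein induced by YAP, rose by 2.06 ± 0.18, whereas its relative CTGF went from 103 to 32 reads (by 1.52 ± 0.23 down). On the YAP list 4 of 20 rose and 5 fell (3 and 2 with spike-in scaling), 20% and 25%, also near the shares of all genes. AMOT, a YAP-binding scaffold, fell by 1.26 ± 0.16. Fibroblast markers moved with the treatment: 4 of the 5 measured of 10 fell, and their summed level was 26.4 to 28.4 CPM with DMSO and 8.51 to 11.8 CPM with SCDi. Without DMSO replicate 1, DMSO replicate 2 or SCDi replicate 3, 2 of them fell. Nearly all of that sum was LUM (222 and 57 reads) and FAP (181 and 92), with COL1A1 at 5 and 0 reads and DCN at 13 and 1. Their part in the results for matrix and invasive genes was not tested.

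Several transcripts of the BMP response fell. Of 20 genes of the ID, SMAD and BMP list 7 fell (35%, against 23.1% of all genes) and 1 rose (5%, against 20.9%), with a median of -0.29. The rise was that of SMAD4 (0.24, adjusted p = 0.0397), which lost the call under 6 alternatives. ID3 (ENSG00000117318.8, chromosome 1, 23557918 to 23559794, minus strand), an inhibitor of basic helix-loop-helix factors, read 8.18, 8.19 and 8.21 log2 CPM with DMSO and 6.29, 6.34 and 6.21 with SCDi. ID1 read 5.97, 5.85 and 5.82 with DMSO and 2.91, 3.31 and 3.65 with SCDi. Neither overlapped, and ID1, ID2 and ID3 fell by 2.59 ± 0.15, 2.21 ± 0.30 and 1.91 ± 0.08 (adjusted p = 6e-13, 1.68e-06 and 1.8e-15). The inhibitory SMAD6 fell by 1.96 ± 0.26, from 136 to 33 reads. In the PI3-kinase and FOXO list 9 of 21 rose and 5 fell (5 and 5 with spike-in scaling), shares of 42.9% and 23.8% against 20.9% and 23.1% of all genes. PIK3R3, a regulatory subunit, read 5.45, 5.58 and 5.40 with DMSO and 2.44, 3.02 and 2.63 with SCDi, and fell by 2.78 ± 0.13. The insulin receptor gene INSR and its substrate IRS1 rose by 1.20 ± 0.23 and 1.40 ± 0.29, and TXNIP, which limits glucose uptake, by 1.37 ± 0.13, while AKT1 and AKT2 fell by 0.77 and 0.71.

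Genes of DNA replication fell almost throughout. Of 38 replication and nucleotide synthesis genes 35 fell and 0 rose (median -1.02), with 32 falls under spike-in scaling. GINS1, a subunit of the replicative helicase, read 6.99, 6.88 and 6.92 log2 CPM with DMSO and 4.92, 5.15 and 5.06 with SCDi. MCM4, of the helicase core, read 7.44, 7.65 and 7.59 with DMSO and 5.92, 5.97 and 5.84 with SCDi. The groups did not overlap for either, and the falls were 1.89 ± 0.14 and 1.65 ± 0.08 (adjusted p = 5.03e-11 and 2.74e-14). CHAF1B, which loads histones behind the fork, fell by 1.67 ± 0.16, PCNA, the sliding clamp, by 1.51, and RRM2, which makes deoxynucleotides, by 1.72 ± 0.07. Of 26 G1 regulators 15 fell and 4 rose (median -0.60). CCNE1 (ENSG00000105173.13, chromosome 19, 29811898 to 29824308, plus strand), cyclin E1, read 6.56, 6.41 and 6.68 with DMSO and 4.60, 4.56 and 4.59 with SCDi. CCNE1 and CCNE2 fell by 1.97 ± 0.14 and 2.49 ± 0.30, and the activator E2F2 and the repressor E2F8 by 1.70 ± 0.18 and 1.81 ± 0.35. The 4 that rose were the inhibitors CDKN1A, CDKN1B (0.53) and CDKN2A (1.53, 14 to 30 reads, lost under 2 alternatives) and the cyclin gene CCND2, with 2 reads against 35 (ratio 18.7, counting interval 4.82 to 160.8). Genes of mitosis fell for 21 of 35 members, and 0 rose (median -0.36). The kinetochore gene ZWINT fell by 2.11 ± 0.13, CDC25A, whose promoter is shown above, by 1.84 ± 0.12 and SPC25 by 1.09 ± 0.17, against 0.24 for TOP2A, 0.27 for TPX2 and 0.30 for CDC20. Among histone genes and their chaperones 7 of 14 fell and 3 rose (1 rose with spike-in scaling or without SCDi replicate 1), with the chaperone ASF1B down by 1.81 ± 0.11 and the variant H2AFZ by 1.09 ± 0.08, and the linker histone gene H1F0, known from resting cells, rose by 1.05.

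Many nuclear genes for mitochondria fell. None of 43 respiratory chain and ATP synthase genes rose and 24 fell (median -0.42), and transcripts of the mitochondrial genome were not measured here. ATP5G3, a copy of the gene for the membrane ring subunit of ATP synthase, read 11.19, 11.25 and 11.13 with DMSO and 9.87, 9.80 and 9.74 with SCDi. ATP5G1, which encodes the same mature protein from another locus, read 9.95, 9.92 and 10.05 with DMSO and 8.32, 8.32 and 8.39 with SCDi. Both fell without overlap, by 1.39 ± 0.09 and 1.63 ± 0.10, though reads of near-identical copies can be split between them. SDHC, a membrane anchor of complex II, and UQCRFS1, the Rieske protein of complex III, fell by 1.09 ± 0.10 and 0.95 ± 0.09. Mitochondrial ribosomal proteins fell for 30 of 55 and rose for 4 (22 and 1 with spike-in scaling, median -0.33), with MRPL12, known to bind the mitochondrial RNA polymerase, down by 1.67 ± 0.23. Import and folding genes fell for 12 of 19 and rose for 4 (7 and 0 with spike-in scaling). The chaperonin cap HSPE1, the membrane scaffold PHB and the import pore TOMM40 fell by 1.18 ± 0.11, 0.94 ± 0.08 and 0.94 ± 0.11. The protease genes LONP1 (0.64 ± 0.13, lost with spike-in scaling) and CLPX (0.63) rose. Of 24 genes of the TCA cycle and pyruvate entry 9 fell and 3 rose (4 and 1 with spike-in scaling), shares of 37.5% and 12.5% against 23.1% and 20.9% of all genes. PCK2, the mitochondrial enzyme that makes phosphoenolpyruvate, rose by 2.54 ± 0.21 (adjusted p = 4.61e-10), from 4.58, 4.10 and 4.08 with DMSO to 6.92, 6.82 and 6.64 with SCDi.

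Most cytosolic chaperones and proteasome genes fell, and autophagy genes rose. Of 24 heat shock chaperones 14 fell and 4 rose (11 and 2 with spike-in scaling, median -0.46). HSPA8, the constitutive cytosolic relative of HSPA5, read 8.71, 8.62 and 8.57 log2 CPM with DMSO and 7.002, 6.55 and 6.64 with SCDi. It fell by 1.90 ± 0.13 (adjusted p = 1.58e-11), and the HSP90 cochaperone FKBP4 and the chaperonin subunit CCT3 fell by 0.91 ± 0.10 and 0.84 ± 0.09. DNAJB4, an HSP40, rose by 1.83 ± 0.33. Of 34 proteasome genes 24 fell and 3 rose (median -0.39), and with spike-in scaling 14 fell and 1 rose. The regulatory subunit PSMD2 and the core subunit PSMB3 fell by 0.91 ± 0.09 and 0.90 ± 0.14, and PSMD7 rose by 0.62 ± 0.11. Of the autophagy genes 13 of 25 rose and 3 fell (median 0.41). OPTN, a selective receptor, read 4.66, 4.27 and 4.72 with DMSO and 6.81, 6.58 and 6.65 with SCDi, with no overlap, and rose by 2.13 ± 0.18. The membrane-binding WDR45, the kinase scaffold RB1CC1 and GABARAPL1 rose by 1.55 ± 0.15, 1.35 ± 0.14 and 1.33 ± 0.11, and ATG16L1, BECN1 and ATG9A fell by 0.51, 0.37 and 0.46, none of them with spike-in scaling. Lysosome genes fell for 11 of 28 and rose for 5 (6 and 2 with spike-in scaling), shares of 39.3% and 17.9% against 23.1% and 20.9% of all genes. The proton pump subunits ATP6V0E1 (down 1.08 ± 0.10) and ATP6V1A (up 0.83 ± 0.10) were on opposite sides.

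Most of the genes that make ribosomes fell. Of 36 nucleolar and biogenesis genes 24 fell and 2 rose (median -0.49). BOP1, NOP10 and NOP16, of ribosomal RNA processing, fell by 1.13 ± 0.13, 0.96 ± 0.10 and 0.88 ± 0.09, and HEATR1 rose by 0.95 ± 0.11. Of 68 cytosolic ribosomal protein genes 25 rose and 1 fell (median 0.22), but only 4 rose with spike-in scaling, and their many processed pseudogenes make single values uncertain. RPL26, RPL3 and RPL12 rose by 0.78 ± 0.21, 0.76 ± 0.19 and 0.70 ± 0.07. Splicing factors fell for 22 of 29 and rose for 5 (median -0.52). SRSF2 (ENSG00000161547.16, chromosome 17, 76734115 to 76737374, minus strand), an SR protein that marks exons, read 8.84, 8.73 and 8.69 with DMSO and 7.01, 6.90 and 6.91 with SCDi. It fell by 1.81 ± 0.08 (adjusted p = 2.2e-15) with no overlap, and HNRNPM and SRSF7 fell by 1.23 ± 0.07 and 0.99 ± 0.09. The kinase genes CLK1 and CLK4, whose products phosphorylate SR proteins, rose by 1.23 ± 0.16 and 1.18.

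The SCD transcript itself (ENSG00000099194.5, chromosome 10, 100347124 to 100364834, plus strand) read 9.77, 9.73 and 9.72 log2 CPM with DMSO and 10.37, 10.42 and 10.31 with SCDi. All 3 SCDi libraries were higher, by 0.63 ± 0.16 (adjusted p = 0.00215), and the adjusted p was 0.0631 with spike-in scaling. An enzyme inhibitor need not change its target's transcript, so this gene does not check the labels. SCD5, the other human desaturase of this kind, fell by 0.61, and FADS1, a desaturase of polyunsaturated chains, rose by 0.60. Of 27 genes of fatty acid synthesis, elongation and activation 10 fell and 5 rose (5 and 2 with spike-in scaling). These shares were 37.0% and 18.5%, against 23.1% and 20.9% of all genes. ELOVL1, an elongase of very long saturated chains, fell by 0.93 ± 0.17, FASN and ACACA, the enzymes that build palmitate, by 0.25 and 0.49, and HSD17B12, of the elongation cycle, rose by 1.01 ± 0.17. ACSL5, an acyl-CoA synthetase, had 16 reads with DMSO and 3 with SCDi (ratio 4.98, counting interval 1.43 to 26.7).

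Of 36 phospholipid genes 14 fell (38.9%, against 23.1% of all genes) and 5 rose (13.9%, against 20.9%; 10 and 3 with spike-in scaling, median -0.26). PTDSS1, which makes phosphatidylserine, read 7.79, 7.73 and 7.73 with DMSO and 6.32, 6.22 and 6.56 with SCDi, without overlap. It fell by 1.39 ± 0.09 (adjusted p = 2.05e-12), and the acyltransferases AGPAT5 and AGPAT1 fell by 1.31 ± 0.12 and 0.92 ± 0.08, while AGPAT4 rose by 1.31 ± 0.21. LPCAT3, which puts polyunsaturated chains into phosphatidylcholine, fell by 0.78 ± 0.19. The cholesterol pathway was mixed, with 9 of 25 up (36%, against 20.9% of all genes, and 4 with spike-in scaling) and 7 down (28%, against 23.1%). FDPS, an early step, and STARD4, a sterol carrier, rose by 0.92 ± 0.16 and 1.09 ± 0.28. Of 16 genes that control SREBP, the master factor of these pathways, 6 fell and 3 rose (0 rose with spike-in scaling). These shares were 37.5% and 18.75%, against 23.1% and 20.9% of all genes. Among the falls was that of the ligase gene MYLIP, which degrades the LDL receptor (down 1.23 ± 0.18). PLTP, a phospholipid transfer protein known as a target of LXR, read 2.24, 2.24 and 1.71 with DMSO and 4.18, 4.21 and 4.19 with SCDi. It rose by 2.13 ± 0.22, in a list where 2 of 12 rose and 2 fell (16.7% each, below the shares of all genes). For lipid droplets and fatty acid oxidation, 4 of 29 rose and 6 fell (1 and 2 with spike-in scaling). These shares, 13.8% and 20.7%, are below those of all genes. The triglyceride synthase DGAT2 had 24 reads with DMSO and 3 with SCDi (ratio 7.47, counting interval 2.27 to 38.8). Of 22 sphingolipid genes 6 fell and 2 rose, shares of 27.3% and 9.09% against 23.1% and 20.9% of all genes. ORMDL2, a brake on ceramide synthesis, fell by 0.75 ± 0.13 and the desaturase DEGS1 by 0.70 ± 0.21.

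Genes of the antioxidant factor NRF2 rose for 16 of 25 members and fell for 3 (median 0.39), with 9 rises under spike-in scaling. GCLM, a subunit of the enzyme that starts glutathione synthesis, read 5.96, 6.23 and 5.88 with DMSO and 8.15, 8.18 and 8.09 with SCDi, without overlap, and rose by 2.12 ± 0.10. SRXN1, which repairs peroxiredoxins, rose by 1.77 ± 0.11, TXNRD1, thioredoxin reductase, by 1.58 and HMOX1, haem oxygenase, by 1.15, while GPX1 and PRDX1, which remove peroxides, fell by 0.82 ± 0.08 and 0.66. Genes of iron handling and ferroptosis defence fell for 8 of 20 and rose for 3 (5 and 1 with spike-in scaling). The iron store subunits FTL and FTH1 rose by 0.76 ± 0.08 and 0.37, and the iron importers SLC11A2 and TFRC fell by 1.32 ± 0.11 and 0.37. Glycolysis and hypoxia genes fell for 15 of 33 and rose for 8 (10 and 3 with spike-in scaling). PGAM1, phosphoglycerate mutase, read 4.15, 4.50 and 3.96 with DMSO and 1.75, 2.52 and 1.87 with SCDi, and fell by 2.16 ± 0.31 without overlap. LDHA, which makes lactate, and its exporter SLC16A3 fell by 1.20 ± 0.12 and 1.22 ± 0.41, while the hypoxia genes NDRG1 and ALDOC rose by 1.93 and 1.49. Of 18 MHC class I and antigen processing genes 8 rose and 1 fell, but 1 rose with spike-in scaling, and reads of the similar HLA genes can be assigned to the wrong one. HLA-B rose by 0.91 ± 0.14.

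Some of the largest changes were in genes of none of the lists. HOXB9 (ENSG00000170689.9, chromosome 17, 48621159 to 48626356, minus strand), a homeobox factor of body patterning, read 2.93, 2.75 and 2.16 log2 CPM with DMSO and 6.48, 6.48 and 6.54 with SCDi. CREB5 (ENSG00000146592.16, chromosome 7, 28299321 to 28825894, plus strand), a bZIP factor, read 2.59, 2.96 and 2.45 with DMSO and 5.96, 5.99 and 5.92 with SCDi. No library of 1 group reached the other group for either gene, and they rose by 3.89 ± 0.23 and 3.29 ± 0.24 (adjusted p = 1.21e-12 and 2.91e-11). KLF5, a zinc-finger factor, rose by 3.13 ± 0.16, the histone deacetylase gene HDAC9 by 2.83 ± 0.29 and RCAN1, an inhibitor of calcineurin, by 2.58 ± 0.07. PI15, a secreted peptidase inhibitor, read 6.09, 6.09 and 5.87 with DMSO and 2.95, 2.88 and 2.77 with SCDi. MARCKSL1 (ENSG00000175130.6, chromosome 1, 32333832 to 32336379, minus strand), an actin-regulating membrane protein, read 7.26, 7.19 and 7.26 with DMSO and 4.58, 4.75 and 4.70 with SCDi. NFATC2 (ENSG00000101096.19, chromosome 20, 51386957 to 51562831, minus strand), a factor activated by calcineurin, read 6.12, 6.09 and 6.46 with DMSO and 3.82, 3.49 and 4.23 with SCDi. All 3 fell without overlap, by 3.15 ± 0.12, 2.56 ± 0.09 and 2.38 ± 0.19. The calcium sensor NCALD fell by 2.06 ± 0.10, the chromatin remodeller HELLS by 2.06 ± 0.13, and ATAD3B, of mitochondrial nucleoids, by 2.35 ± 0.29, though the near-identical ATAD3A makes its reads uncertain.

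**Figure D4:**
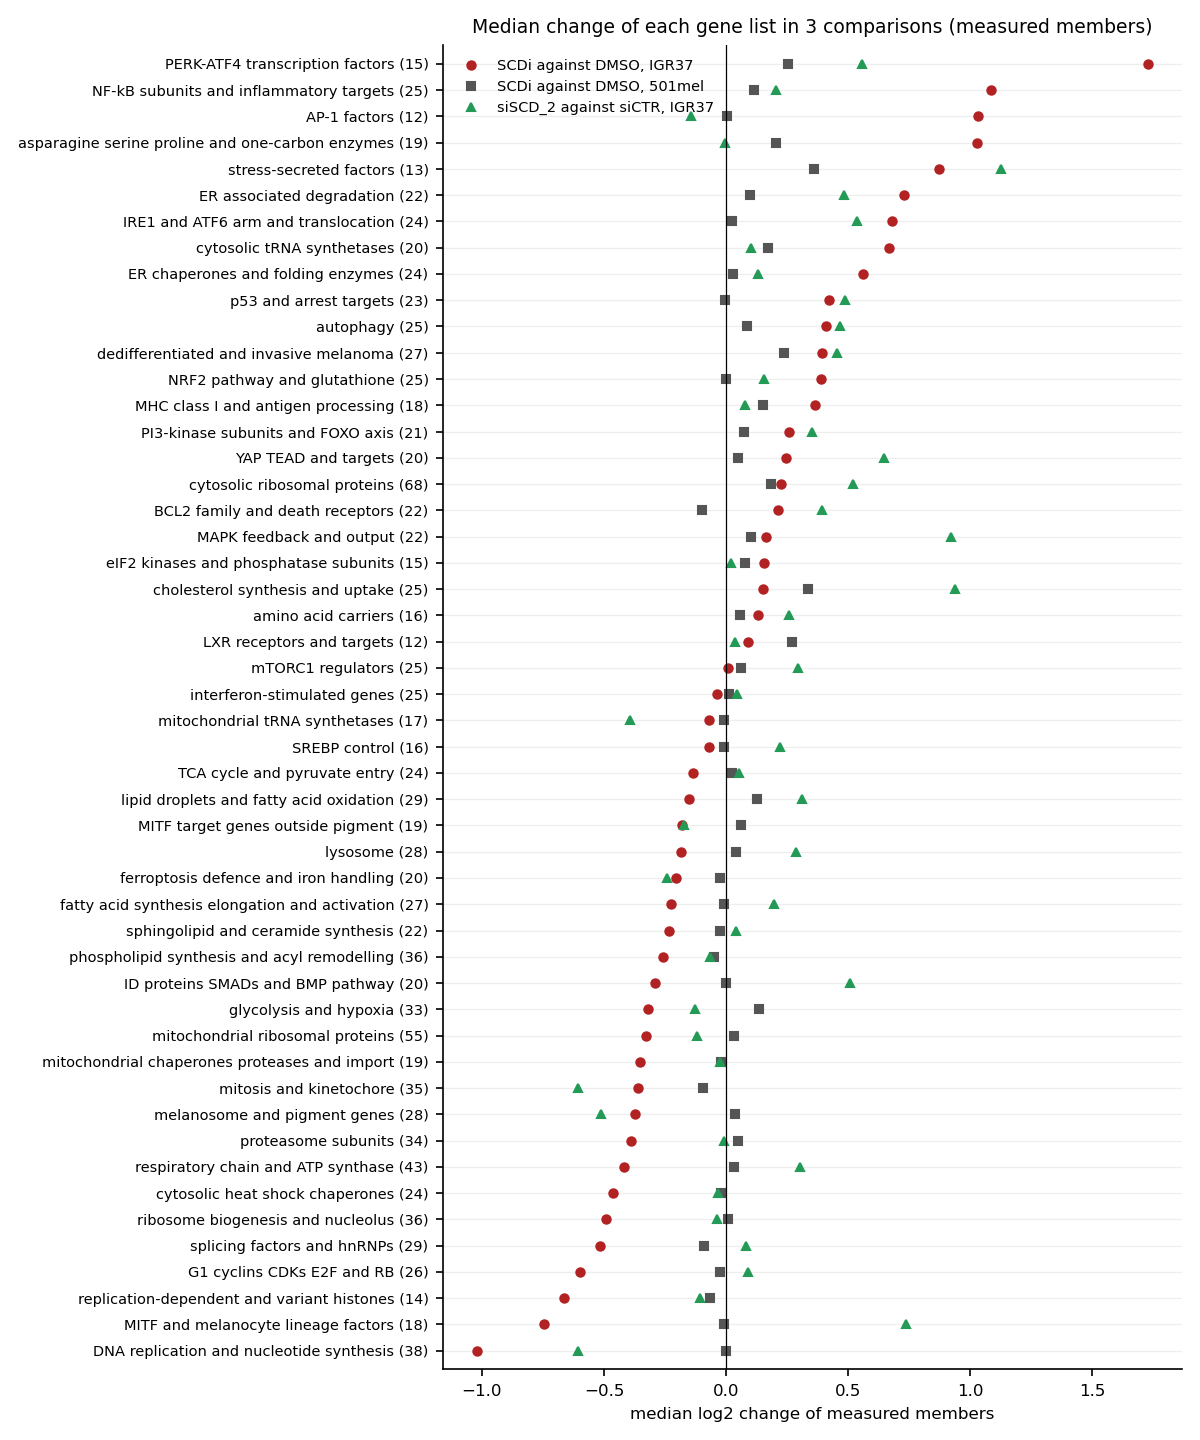
Median change (x axis, log2) over the measured members of each gene list for SCDi against DMSO in IGR37, SCDi against DMSO in 501mel and siSCD_2 against siCTR in IGR37. By the deposited scaling, as plotted, the 501mel medians lie near 0 for most lists, and the siSCD_2 medians of the lineage, ID and respiratory chain lists lie on the other side of 0 from those of SCDi. With spike-in scaling the median over all genes is 0.37 in 501mel and -0.47 with siSCD_2, and the siSCD_2 medians of these 3 lists are 0.26, 0.03 and -0.17.

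In 501mel the same dose and time gave 31 genes that rose (0.232%) and 8 that fell (0.0599%), against 93 and 1 with spike-in scaling, where the median over all genes in 501mel was 0.37. That scaling uses the mean log2 spike-in level, given here as the shift from the mean of the 24 libraries. It was -0.35, -0.80 and -0.24 in the 501mel SCDi libraries and -0.04, 0.01 and -0.25 in the DMSO libraries, so the groups overlapped. Tested as a difference, the SCDi effect was higher in IGR37 than in 501mel for 1642 genes (12.3%) and lower for 2049 (15.3%), and 3484 of the 5890 genes that changed in IGR37 (59.2%) had a called difference. With spike-in scaling 268 genes were higher and 2509 lower, so that 9.65% of called differences were higher, against 44.5% by the deposited scaling. Of the 31 genes that rose in 501mel 21 also rose in IGR37, and of the 8 that fell 5 did. The PERK-arm factors had a higher effect in IGR37 for 12 of 15, a 501mel median of 0.25, and 3 rises in 501mel. With spike-in scaling these were 8 of 15, a median of 0.62 and 5 rises, and the median difference was 1.02, against 1.48 by the deposited scaling. ATF4 rose in 501mel by 0.69 ± 0.14 (adjusted p = 0.0188), with the IGR37 effect 1.78 ± 0.19 higher (adjusted p of the difference = 1.86e-07), and its DMSO level was 8.69 log2 CPM in 501mel against 7.58 in IGR37. DDIT3 and SLC7A11 differed by 3.55 ± 0.21 and 4.09 ± 0.22, and RELB by 3.48 ± 0.28 (adjusted p = 6.13e-12, 9.22e-13 and 1.25e-09).

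The ER chaperones had a 501mel median of 0.03. HSPA5 changed there by -0.14 ± 0.09 (adjusted p = 0.642), 2.21 ± 0.13 apart from IGR37, and 17 of 24 chaperones and folding enzymes had a higher effect in IGR37. That count was 3 of 24 with spike-in scaling, the median difference 0.16 against 0.62 by the deposited scaling, and the 501mel median of these genes 0.40. Replication genes had a 501mel median near 0 (0.37 with spike-in scaling), and the effect was lower in IGR37 for 34 of 38. MITF changed by -0.02 ± 0.08 in 501mel, a difference of -0.89 ± 0.11 (adjusted p = 1.78e-06), and 10 of 18 lineage genes had a lower effect in IGR37. The last 2 counts, 34 and 10, did not move with spike-in scaling. The median of each of these lists kept its sign in the difference under every scaling, whereas those of autophagy, NRF2, BCL2 family and p53 genes changed sign with spike-in scaling. CDKN1A differed upward by 4.04 ± 0.56, with 4 reads with DMSO and 0 with SCDi in 501mel, and by 1.67 with a pseudocount of 1 (adjusted p = 6.25e-05). CXCL8 differed upward by 3.53 ± 0.47. PI15, NFATC2, CTSK and ATAD3B had differences of -3.09 ± 0.17, -2.95 ± 0.27, -2.71 ± 0.54 and -2.58 ± 0.41. SERPINB1, a protease inhibitor that did not pass the test in IGR37 (change 0.15), had a difference of -2.91 ± 0.84 on 2 and 13 reads in 501mel. With a pseudocount of 1 the SERPINB1 difference was -0.50 and did not pass the test (adjusted p = 0.226).

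The siRNA lowered the SCD transcript itself, from 10.16, 10.16 and 10.05 log2 CPM in the siCTR libraries to 6.52, 5.32 and 6.09 in the siSCD_2 libraries. All siSCD_2 libraries lay far below all siCTR libraries. The inhibitor and the siRNA effects differed upward for 2494 genes (18.7%) and downward for 2694 (20.2%), and with spike-in scaling for 2663 and 652. That made 80.3% of called differences upward, against 48.1% by the deposited scaling. The 2 effects share no library, and of the genes called in both 1064 rose in both, 1161 fell in both, 392 rose with SCDi and fell with siSCD_2, and 664 fell with SCDi and rose with siSCD_2. With spike-in scaling these counts were 163, 1172, 282 and 121, and the median siSCD_2 effect over all genes was -0.47. The spike-in shifts were uneven, at 0.28, 0.23 and 0.80 in the siSCD_2 libraries and -0.10, 0.08 and -0.09 in the siCTR libraries. Spike-in scaling was not run with single libraries left out. The control libraries also differ between the arms, so the control levels are given with the genes below.

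EIF2AK3 rose with SCDi and did not pass the test with the siRNA (0.02 ± 0.11), a difference of 1.88 ± 0.16 (adjusted p = 8.25e-10), from baselines of 4.88 with DMSO and 4.995 with siCTR. HOXB9 and CREB5 changed by -0.07 and -0.39 with the siRNA, differences of 3.95 ± 0.33 and 3.68 ± 0.33, from DMSO means of 2.61 and 2.67 and siCTR means of 3.74 and 3.29. BBC3 changed by -0.13 ± 0.17 with the siRNA, and its siCTR mean of 5.81 was above its DMSO mean of 4.52. CD68, a lysosomal membrane protein, rose with SCDi by 2.16 ± 0.19 and fell with the siRNA (-1.72 ± 0.19), and PDE9A, a cyclic GMP phosphodiesterase, rose by 1.04 ± 0.27 and changed by -2.46 ± 0.27 with the siRNA. Their DMSO means were 3.49 and 4.03, and their siCTR means 3.87 and 4.50. The PERK-arm factors had a higher effect with SCDi for 10 of 15 and a siSCD_2 median of 0.56, and the sign of the median difference held under every scaling. With spike-in scaling the siSCD_2 median was 0.08, and the higher effects stayed at 10 of 15.

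Several groups had a lower effect with SCDi than with the siRNA. The lineage list had a siSCD_2 median of 0.74, and the SCDi effect was lower for 12 of 18 (0.26 and 9 with spike-in scaling). ERBB3 read 5.74, 5.74 and 5.63 with siCTR and 7.18, 7.20 and 7.47 with siSCD_2, a rise where the inhibitor gave a fall, and the difference was -3.13 ± 0.15 (adjusted p = 2.6e-14). MITF fell under both, with changes of -0.92 ± 0.08 and -1.13 ± 0.08, from means of 9.10 with DMSO and 9.38 with siCTR. TYR fell with SCDi and rose with the siRNA (0.82 ± 0.09, or 0.34 with spike-in scaling, adjusted p = 0.211), from means of 7.98 with DMSO and 7.91 with siCTR. S100B read 7.17, 7.09 and 7.13 with siCTR and 9.19, 9.25 and 9.44 with siSCD_2, higher where SCDi libraries were lower. The ID and BMP list had a siSCD_2 median of 0.51 (0.03 with spike-in scaling), and ID1 and ID3 rose with the siRNA by 1.13 ± 0.15 and 1.13 ± 0.08, differences of -3.71 ± 0.21 and -3.04 ± 0.11. With spike-in scaling both siRNA rises kept the call, at 0.65 and 0.66. Their siCTR means were 5.11 and 7.65, against DMSO means of 5.88 and 8.19. The respiratory chain list had a siSCD_2 median of 0.30 and a lower SCDi effect for 31 of 43 members. With spike-in scaling that median was -0.17, the same side of 0 as with SCDi, and the lower effects were 8 of 43. The cholesterol list had a siSCD_2 median of 0.94 against 0.15 with SCDi, with a lower SCDi effect for 13 of 25 (a siSCD_2 median of 0.46 and 6 of 25 with spike-in scaling). The signs of these 4 median differences held under every scaling, at -1.02, -0.40, -0.30 and -0.25 with spike-in scaling against -1.41, -0.79, -0.68 and -0.64 by the deposited scaling. PI15, MARCKSL1 and NFATC2 rose with the siRNA by 0.85 ± 0.12, 1.38 ± 0.09 and 3.62 ± 0.19, from siCTR means of 4.92, 6.30 and 4.53 that were below their DMSO means of 6.02, 7.24 and 6.22. The PI15 rise with the siRNA was 0.37 with spike-in scaling and did not pass the test (adjusted p = 0.198). SESN3, a brake on mTORC1, read 2.99, 2.99 and 3.77 with siCTR and 6.38, 6.20 and 6.66 with siSCD_2, a rise where SCDi gave a fall. That fall was from 4.21, 4.06 and 3.62 with DMSO to 3.06, 3.02 and 2.98 with SCDi, levels near those with siCTR. TMX4, an ER membrane thioredoxin, had effects of -1.63 with SCDi, from 6.002, and 2.06 with the siRNA, from 4.92.

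**Figure D5:**
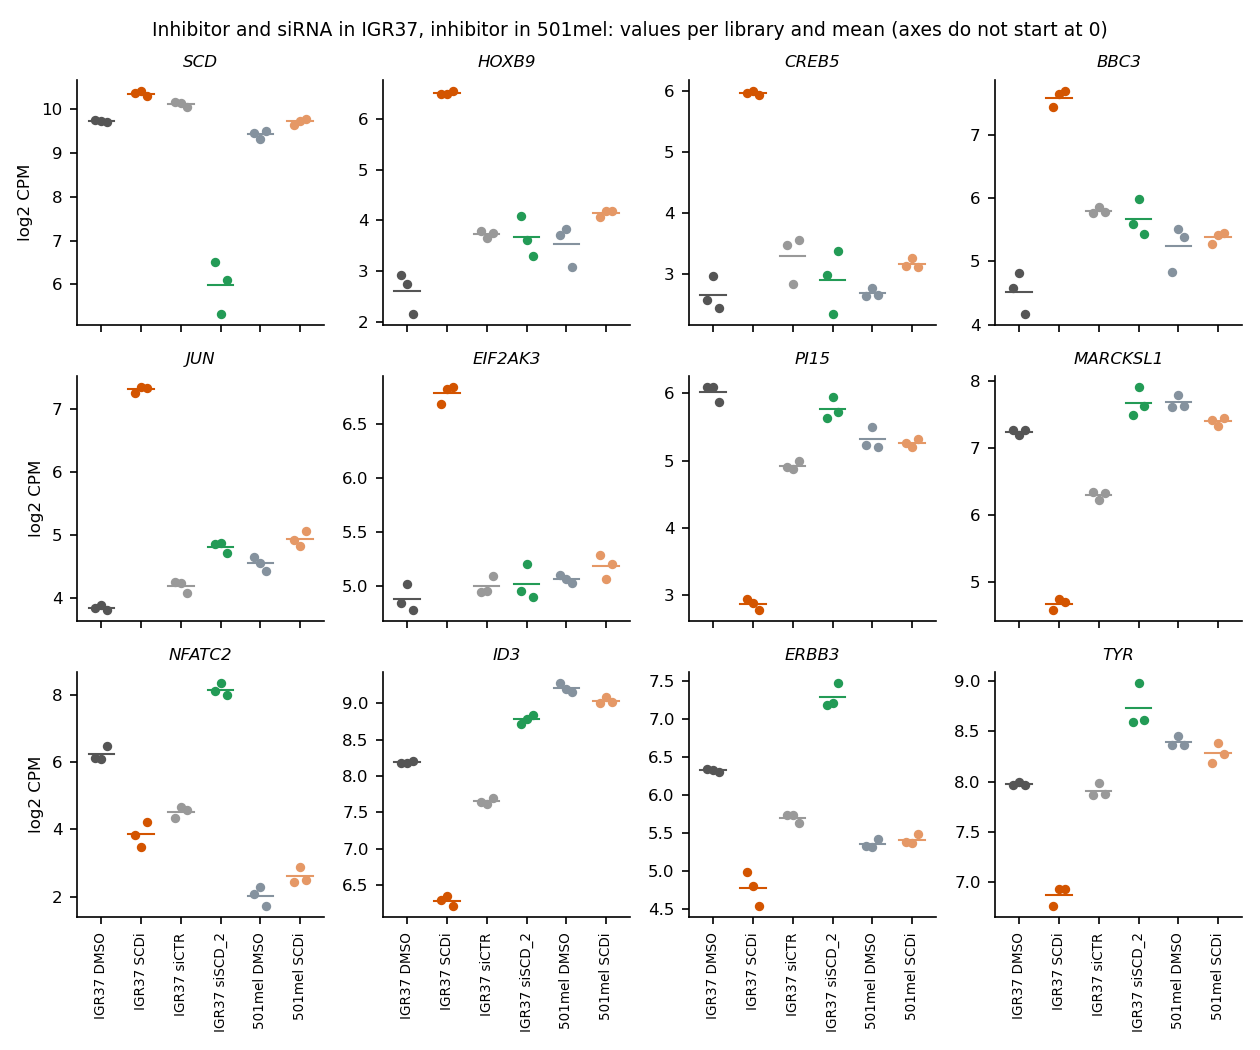
Level of 12 genes (y axis, log2 CPM; points are libraries, horizontal lines the mean) in 6 groups of 3 libraries, from left to right IGR37 with DMSO, SCDi, siCTR and siSCD_2 and 501mel with DMSO and SCDi. SCD is lowest with siSCD_2, HOXB9, CREB5, BBC3, JUN and EIF2AK3 are highest in IGR37 with SCDi, and PI15, MARCKSL1, ID3, ERBB3 and TYR are lowest there.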

How the data were processed

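The authors deposited 1 table of log2 CPM values for 24 libraries, made from reads near transcript 3′ ends with STAR, edgeR and build hg38, per the submitters' processing notes, and the values fit a prior count of 0.25. The deposited scaling is not by read totals alone. In 501mel with siSCD_2, 1 read was 0.195 CPM in library 1, with 5095235 gene reads and 381188 spike-in reads. It was 0.190 CPM in library 2, with 5052658 and 274718. The 12 libraries of a separately normalised table were not used. 66 spike-in rows and 1 Mitf-FLAG row were left out, and read numbers were computed back from the log2 values and are approximate to rounding. A filter (log2 CPM above 0 in at least 3 libraries) removed 0 of 13364 genes.

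One coefficient per group was fitted over all 24 libraries with limma 3.58.1 (R 4.3.3), with a variance trend and Benjamini-Hochberg adjustment over all genes. Each SE draws on the spread in all of these libraries. It can thus exceed that of the libraries compared, as for SCD, BIRC3 and CDKN1A. Calls are at an adjusted p below 0.05, and log2 changes understate those of low genes. The code was tested on simulated data. Coordinates are those of hg38 with GENCODE annotation, which matched 12570 genes (94.1%).

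The comparison, its members and the gene lists were chosen with earlier results of these data known. Named genes are, of each list, up to 4 with the largest called change in the majority direction and 1 in the other, the 8 largest changes each way above the median level, the 5 largest outside the lists and for each difference, and SCD, MITF, ATF4, DDIT3 and AXL. Other genes named were chosen after their values were seen. The alternatives were spike-in and median centring, quantile normalization, a pseudocount of 1, a stricter filter and none, no variance trend, only the compared libraries, a replicate block and leaving out each library. Some results are not reported here.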

Additional observations from a re-analysis of the deposited data

Results flagged for a closer look

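Effects of the inhibitor differed between the 2 cell lines by the interaction test in limma for 1642 genes with a higher and 2049 with a lower effect in IGR37. Among the genes named above, the effect in IGR37 minus that in 501mel was 4.09 for SLC7A11, 4.04 for CDKN1A, 3.55 for DDIT3, 3.525 for CXCL8, 3.48 for RELB and 1.78 for ATF4 (log2). It was -3.09 for PI15, -2.95 for NFATC2, -2.91 for SERPINB1, -2.71 for CTSK, -2.58 for ATAD3B and -0.89 for MITF. Several of these rest on few reads in 501mel, where CDKN1A had 4 reads with DMSO and 0 with SCDi, SERPINB1 2 and 13, and CTSK 15 and 35. With a pseudocount of 1 the differences were 1.67 for CDKN1A (adjusted p = 6.25e-05), -0.50 for SERPINB1 (adjusted p = 0.226, the call lost) and -1.95 for CTSK. With spike-in scaling 268 genes had a higher and 2509 a lower effect in IGR37.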

How the results depend on the processing

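Of 260 genes named by the rule 258 were called with SCDi in IGR37, none reversed under any alternative, and 219 kept the call under all of them. Centring on the spike-ins lost 26 of these calls and moved the counts most: 1454 genes rose, 268 had a higher effect in IGR37 than in 501mel, and 652 had a lower effect with SCDi than with siSCD_2. The cause was not tested. Without 1 library each, 2388 to 2484 genes rose and 2744 to 2839 fell, 1379 to 1510 and 1791 to 1915 differed between the lines, and 2205 to 2535 and 2498 to 2855 differed from the siRNA. The other alternatives kept these counts within 1.5 times. Leaving out the IGR37 siSCD_2 group, a further alternative, gave 3033 genes that rose and 3372 that fell with SCDi in IGR37. Same-numbered DMSO and SCDi libraries had residual correlations of -0.017, 0.152 and 0.097, and other-numbered ones of -0.147 to 0.053. The labels do not say what a number shares, so the numbers were not taken as pairs. With a replicate block in the compared libraries 2920 genes rose and 3159 fell, 2046 and 2578 differed between the lines, and 1953 and 2188 from the siRNA, the last fitted without the third siCTR and siSCD_2 libraries. Spike-in scaling of the 501mel and siSCD_2 effects was chosen after seeing the data. AXL, with 6 and 9 reads, could not be separated at this depth.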

Other observations

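Among transcripts other than protein-coding ones, 35 of 176 lincRNA genes rose with SCDi in IGR37 (19.9%) and 10 fell (5.68%). Of 214 antisense genes 35 rose (16.4%) and 20 fell (9.35%), and of 107 transcribed unprocessed pseudogenes 30 rose (28.04%) and 2 fell (1.87%), against 20.9% and 23.1% of all genes. Antisense genes and pseudogenes share sequence or position with other genes, so these values are uncertain. Among protein-coding genes the fifth with the shortest genomic span had 17.5% up and 28.975% down, and the fifth with the longest span 24.9% up and 17.6% down. Their median levels were 4.56 and 3.86 log2 CPM, and over all genes the fifth with the highest level had 22.9% up and 41.2% down, against 12.6% and 7.3% in the lowest.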
